A study of Mus musculus with 22 samples.

Results

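Complex I, the NADH:ubiquinone oxidoreductase of the inner mitochondrial membrane, was followed at the level of its transcripts in mouse lumbar spinal cord. Its genes were taken by symbol: all rows beginning Nduf with the letter a, b, c, s or v and a digit, and the 7 mitochondrially encoded genes ND1 to ND6 and ND4L. These were 49 of the 17306 genes in the table, 42 nuclear and 7 mitochondrial, and all 49 were among the 16765 genes that passed the filter on low values. Of the 42 nuclear genes, 35 encode recognised subunits, 7 of them core subunits that carry out catalysis and 28 accessory. A further 5 genes (Ndufb4b, Ndufb4c, Ndufs6b, Ndufa11b and Ndufs5-ps) are copies or near copies of subunit genes, so reads between copy and parent may have been split by the counting. Ndufa4 and its relative Ndufa4l2 carry the name only, since Ndufa4 protein belongs to complex IV, the cytochrome c oxidase.

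All 22 mice were wild-type C57BL6J, 12 to 14 weeks old at collection, and all had 1 mg of sodium iodoacetate (MIA) injected into a knee joint, which blocks glycolysis locally and gives a model of osteoarthritis pain; there was no group without MIA. SAFit2, an inhibitor of the co-chaperone FKBP51, was given at 100 mg/kg in a slow-release vesicular phospholipid gel, and Vehicle mice received the gel alone. The Early SAFit2 group (n = 5) and the Early Vehicle group (n = 6) had gel on days -3 and 4 relative to MIA. The Late SAFit2 group (n = 5) and the Late Vehicle group (n = 6) had it on days 20 and 27, and lumbar L4 to L6 cord was taken on day 30. The sample labels put the first early injection on day 3 rather than day -3, and 5 sample titles of the Early SAFit2 group carry the name SAFit1 although the treatment label says SAFit2. The labels name Early and Late as batches, so that a difference between Late and Early mice and a difference between batches cannot be told apart. According to the study's methods the tissue was the quadrant of the cord on the injected side.

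Complex I takes electrons from NADH and passes them along iron-sulfur clusters to ubiquinone, and uses the energy to pump protons. The N module at the tip of its matrix arm oxidises NADH, the Q module below it reduces ubiquinone, and the membrane arm, in a proximal and a distal part, moves the protons. The membrane core is made in the mitochondrion from ND1, ND2, ND3, ND4, ND4L, ND5 and ND6, while all other subunits are encoded in the nucleus, made in the cytosol and imported. Mitochondrial DNA is copied into long transcripts from both strands by its own RNA polymerase, and these are cut into the single messengers. Neurons depend heavily on oxidative phosphorylation, and complex I is among the main sites at which reactive oxygen species arise in nervous tissue.

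The mitochondrial genes lie close together, and neighbouring genes share bases, which bears on how far their reads can be told apart. In the mouse mitochondrial genome (GRCm38.p6 coordinates from RefSeq) ND1 is at chrMT:2751-3707, ND2 at chrMT:3914-4951, ND3 at chrMT:9459-9806, ND4L at chrMT:9877-10173, ND4 at chrMT:10167-11544 and ND5 at chrMT:11742-13565. ND6 at chrMT:13552-14070 is read from the opposite strand. ND4L and ND4 share 7 bases, in capitals in the end of ND4L (chrMT:10144-10173) and the start of ND4 (chrMT:10167-10196), taken from GENCODE transcripts and written 5′ to 3′ on the strand of each gene.
ND4L end: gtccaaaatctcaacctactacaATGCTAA
ND4 start: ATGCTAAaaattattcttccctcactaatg
The 3′ ends of ND5 (chrMT:13536-13565) and ND6 (chrMT:13552-13581) overlap by 14 bases, in capitals below, on opposite strands.
ND5 end: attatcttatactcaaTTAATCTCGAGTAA
ND6 end: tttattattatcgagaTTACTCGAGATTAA
The library kit keeps the strand, but whether strand was used in counting is not given in the sources used here. Reads at the ND5 and ND6 overlap may therefore have been counted for either gene. The shared stretches are short beside the genes. Without use of strand, however, reads from the opposite strand along the whole of ND6 would also have been counted for it.

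Per base of transcript, mitochondrial complex I messengers were far more abundant than nuclear ones. On the scale of log2 CPM (reads on a gene scaled to a common library size) per kilobase, averaged over the 22 mice, the 7 mitochondrial genes ranged from 11.03 to 12.46 with a median of 11.71, and the 35 nuclear subunits from 4.22 to 7.96 with a median of 6.53. The medians differed by 5.18, a 36.3-fold difference. ND1 was highest at 12.46 ± 0.49 (SD, n = 22), followed by ND4 at 12.33 ± 0.49, ND2 at 12.13 ± 0.59, ND3 at 11.71 ± 1.06, ND6 at 11.40 ± 0.51, ND4L at 11.12 ± 0.60 and ND5 at 11.03 ± 0.46. The order was not the same in every group: ND3 had the highest mean of the 7 in Late SAFit2 mice (13.15 ± 0.54, n = 5), beside ND1 at 13.05 ± 0.13, but in Early SAFit2 mice (10.95 ± 0.40, n = 5) it was above ND5 alone. Over all mice, for 5 of the 6 pairs of neighbours the mean difference was smaller than its SD between mice: ND1 exceeded ND4 by 0.14 ± 0.15 (in 15 of 22 mice) and ND3 exceeded ND6 by 0.30 ± 0.75 (in 11 of 22 mice). The gap from ND4 to ND2, 0.19 ± 0.19, was about as large as its spread. ND3 and ND4L are short, at 348 and 297 bases, close to the fragment size the labels give for the libraries.

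Among nuclear genes the highest level per length was that of Ndufa4, 8.89 ± 0.38 (SD, n = 22), the complex IV subunit. The highest complex I subunits were Ndufb10 at 7.96 ± 0.25 and Ndufb8 at 7.91 ± 0.30, both of the distal membrane arm, which did not differ beyond their spread. The lowest subunit was Ndufb2 at 4.22 ± 0.20, although the length used for it, 2413 bases, is uncertain. Ndufa4l2, best known as a gene induced by low oxygen, stood at 0.87 ± 0.42 and Ndufa11b, a copy of Ndufa11, at 0.24 ± 0.54. Ndufa4l2 had between 13 and 70 reads per library and Ndufa11b between 2 and 18. Ndufb4b and Ndufs5-ps have no length in the annotation used and were not ranked.

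In the late comparison, Late SAFit2 against Late Vehicle, all 7 mitochondrial genes were called higher, by 1.64-fold to 2.66-fold, while the 42 nuclear genes moved in both directions and mostly were not called. A gene was called at a Benjamini-Hochberg adjusted p under 0.05 with a change of at least 1.2-fold, in a limma fit over all 16765 genes and 4 groups. Of all genes tested, 5.33% were called higher and 6.72% lower in this comparison. For the mitochondrial genes the count was 7 of 7 higher and 0 lower, and for the nuclear genes 3 of 42 higher and 2 of 42 lower, or 1 and 2 of the 35 subunits. Mitochondrial genes share long transcripts and the same libraries, so the 7 calls are not independent results. The median log2 fold change was 0.81 for the mitochondrial genes, 0.04 for the 35 nuclear subunits and -0.05 for all genes tested. In bulk tissue a change in the amount of transcript per cell and a change in the number of cells or of mitochondria cannot be told apart.

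**Figure D1:**
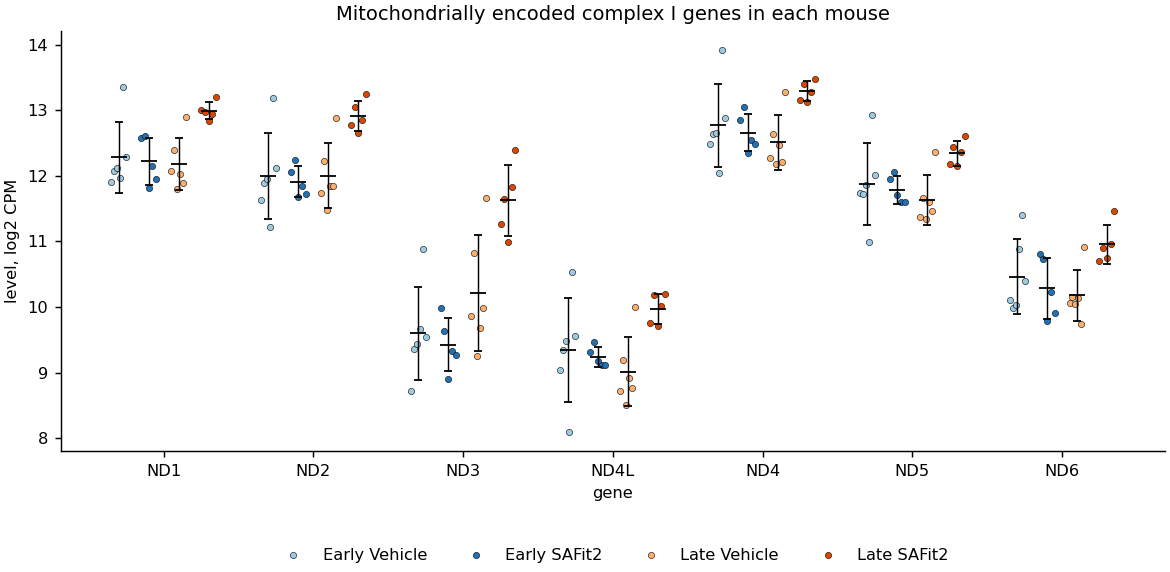
Level in log2 CPM (vertical axis) of the 7 mitochondrially encoded complex I genes (horizontal axis) in each mouse, by group; each point is a mouse, bars are mean ± SD (n = 5 for SAFit2 groups, n = 6 for Vehicle groups). The Late SAFit2 points lie above 5 of the 6 Late Vehicle points in all 7 genes, and the Late Vehicle point that lies with them is replicate 6 each time.

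ND1, which forms part of the ubiquinone pocket where membrane and matrix arms meet, was at 13.00, 12.98, 12.84, 12.94 and 13.20 log2 CPM in the 5 Late SAFit2 mice. In the 6 Late Vehicle mice it ran from 11.80 through a median of 12.05 to 12.89. The difference was 0.81 ± 0.23 (log2 fold change ± SE, limma adjusted p = 0.0354), and the groups overlapped through a single Vehicle mouse, replicate 6. ND2, a proton-pumping subunit of the proximal arm, was at 12.78, 13.04, 12.66, 12.85 and 13.25 log2 CPM in Late SAFit2 mice. Its Late Vehicle values ran from 11.49 through a median of 11.84 to 12.88, which gave a log2 fold change of 0.91 ± 0.26 (limma adjusted p = 0.0347).

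ND3 carries a loop at the junction of the arms that switches between the active and the dormant form of the enzyme, and it had the largest late fold change of the 49 genes. It was at 11.27, 11.65, 10.99, 11.82 and 12.39 log2 CPM in Late SAFit2 mice and at 9.25, 9.92 and 11.67 (lowest, median, highest) in Late Vehicle mice. The log2 fold change was 1.41 ± 0.35 (limma adjusted p = 0.0324). Of the 7 genes ND3 also varied most between mice within these groups, with an SD of 0.54 in Late SAFit2 and 0.88 in Late Vehicle. ND4L, a small membrane subunit beside ND6, was at 9.76, 10.18, 9.71, 10.02 and 10.20 in Late SAFit2 mice and from 8.51 through 8.84 to 9.99 in Late Vehicle mice, with a log2 fold change of 0.96 ± 0.27 (limma adjusted p = 0.0353).

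ND4 and ND5 are the proton-pumping subunits of the distal arm. ND4 was at 13.16, 13.41, 13.12, 13.27 and 13.48 log2 CPM in Late SAFit2 mice and from 12.17 through 12.37 to 13.28 in Late Vehicle mice, so that the log2 fold change was 0.78 ± 0.25 (limma adjusted p = 0.0439). ND5 was at 12.18, 12.44, 12.15, 12.37 and 12.60 in Late SAFit2 mice and from 11.35 through 11.53 to 12.36 in Late Vehicle mice, so that the log2 fold change was 0.71 ± 0.23 (limma adjusted p = 0.0453). Both were again high in a single Late Vehicle mouse, replicate 6. ND6, the gene on the other strand, was at 10.71, 10.90, 10.75, 10.96 and 11.46 in Late SAFit2 mice and from 9.74 through 10.10 to 10.91 in Late Vehicle mice, so that the log2 fold change was 0.78 ± 0.24 (limma adjusted p = 0.0416). Genes annotated on either strand were thus called higher. Since use of strand in counting is not given, the strand of the reads counted for ND6 is not known.

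All 7 genes were highest of the Late Vehicle mice in replicate 6, and in all 7 every Late SAFit2 mouse was above the other 5 Late Vehicle mice. No member had groups without any overlap, against 1.71% of all genes tested. By the two-sided exact permutation test over all divisions of the 11 late mice, p ranged from 0.00649 to 0.0173 for the 7 genes, where 0.00216 is the smallest value the design allows. After adjustment over all genes tested, these p-values became 0.181, the lowest adjusted value of any gene in the table. The calls therefore rest on the limma fit of the 4 groups. With the 11 late mice fitted alone, the fold changes were the same and the unadjusted limma p ran from 0.000261 to 0.00113, against 0.000409 to 0.00441 with all 4 groups. After adjustment over all genes, 0 of 7 were called in the fit of the late mice alone (limma adjusted p = 0.0687 for each).

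The late call of the mitochondrial genes depended on single libraries, but the direction did not. When each of the 22 libraries was left out in turn, the median log2 fold change of the 7 genes ranged from 0.75 to 0.95 and all 7 were positive each time. The number called ranged from 0 to 7, and was 0 without Late SAFit2 replicate 2, 4 or 5 and without Late Vehicle replicate 1, 3, 4 or 5. Without Late Vehicle replicate 6 all 7 were called, with a median of 0.95, and 14 nuclear genes were called instead of 5. The nuclear count was 0 without any of the 7 libraries just named. The shares of all genes called in these fits are not given here.

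The libraries differed in base composition in the same direction. For each library the slope of log2 CPM (relative to the mean library) on the GC content of the transcript was computed over all genes with a GC value, in log2 units per 10 percentage points. The 5 Late SAFit2 libraries had slopes of -0.05, -0.33, -0.22, -0.48 and -0.40, that is, relatively more reads on AT-rich genes. Late Vehicle replicates 1, 3, 4 and 5 had 0.35, 0.49, 0.26 and 0.39, replicate 2 had -0.16 and replicate 6 had -0.32. Late Vehicle replicates 2 and 6 thus both had slopes within the range of the Late SAFit2 libraries. The mean level of the 7 mitochondrial genes was 12.00 log2 CPM in replicate 6, within the Late SAFit2 range of 11.75 to 12.37, and 11.30 in replicate 2, below all 5 Late SAFit2 mice. The 7 mitochondrial genes are AT-rich, with GC contents of 33.0% to 41.1%, against a median of 51.5% for the 35 nuclear subunits. With the slope as a covariate in the fit, the late log2 fold changes of the 7 genes were 0.23 to 0.33 and the lowest unadjusted p was 0.236. With each library's trend on GC content and length removed, they were 0.11 to 0.68, and 0 of 7 were called (lowest adjusted p = 0.115). By construction, either correction would also remove a treatment effect that followed GC content.

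Reads on Bc1, an abundant neuronal noncoding RNA, and on skeletal muscle genes also moved with some libraries. Bc1 took 3.31% to 16.5% of reads in Late SAFit2 libraries and 1.32% to 7.55% in Late Vehicle libraries, the highest of these being replicate 6. Without the 4 libraries of any group above 7%, the late fold changes of the mitochondrial genes had a median of 0.90 and 1 of 7 was called. The summed level of 7 skeletal muscle markers was 227 and 166 CPM in Late SAFit2 replicates 3 and 5 and at most 12.4 CPM in every other library. Without these libraries the median was 0.79 and 0 of 7 genes were called. Of these, replicate 3 had the lowest level of the Late SAFit2 mice for every mitochondrial gene but ND6, and replicate 5 the highest for all 7. Summed markers of neurons (8 genes, all read in every library) were at 4852 to 5364 CPM in Late SAFit2 and 4057 to 5023 CPM in Late Vehicle libraries. The highest of the latter was again replicate 6. None of the 8 was called, and 5 had a positive and 3 a negative late fold change, with a median log2 value of 0.07. Mean sums in Late SAFit2 and Late Vehicle libraries were 5191 and 4733 CPM for astrocyte markers. They were 361 and 327 CPM for microglia and 238 and 319 CPM for oligodendrocyte precursors. Beyond these fits, the part of base composition, Bc1, muscle and the content of neurons or other cells in the late differences was not tested.

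Of the nuclear core subunits, Ndufv2 rose and Ndufv1 and Ndufs7 fell in the late comparison. Ndufv1 (chr19:4007499-4012755) holds the flavin that accepts electrons from NADH. It was at 8.03, 7.45, 7.52, 7.16 and 7.18 log2 CPM in Late SAFit2 mice and from 7.49 through a median of 7.96 to 8.24 in Late Vehicle mice. The groups overlapped, with Late SAFit2 replicates 1 and 3 above the lowest Vehicle mouse, and the log2 fold change was -0.45 ± 0.14 (limma adjusted p = 0.0429). Ndufv2 (chr17:66078795-66101559), its iron-sulfur partner in the N module, was at 8.40, 8.40, 8.33, 8.24 and 8.51 in Late SAFit2 mice. Its Late Vehicle values ran from 7.52 through 7.85 to 8.31, and the log2 fold change was 0.48 ± 0.15 (limma adjusted p = 0.0425).

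Ndufs7 (chr10:80249105-80256794) carries the last iron-sulfur cluster before ubiquinone. It was at 5.87, 5.27, 5.38, 4.79 and 5.06 log2 CPM in Late SAFit2 mice and from 5.31 through 6.25 to 6.51 in Late Vehicle mice, the lowest being replicate 6. The log2 fold change was -0.81 ± 0.20 (limma adjusted p = 0.0324), the largest fall of the 49 genes. Ndufs3 and Ndufs8, also of the Q module, were not called, with log2 fold changes of 0.01 ± 0.12 (limma adjusted p = 0.947) and -0.32 ± 0.13 (0.0975). Nor was Ndufs1, the large N-module subunit with several iron-sulfur clusters, at 0.18 ± 0.11 (0.266). Ndufv1 and Ndufv2, partners in the N module, were thus called in opposite directions. Within single mice the log2 level of Ndufv2 minus that of Ndufv1 was 0.37 to 1.33 in Late SAFit2 mice and -0.56 to 0.82 in Late Vehicle mice. This shift follows from the calls of the pair and is no separate result. Nuclear calls were near the shares of all genes called, 5.33% higher and 6.72% lower. Over 39 alternative settings, the call held in 19 for Ndufv1, 20 for Ndufv2 and 25 for Ndufs7.

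**Figure D2:**
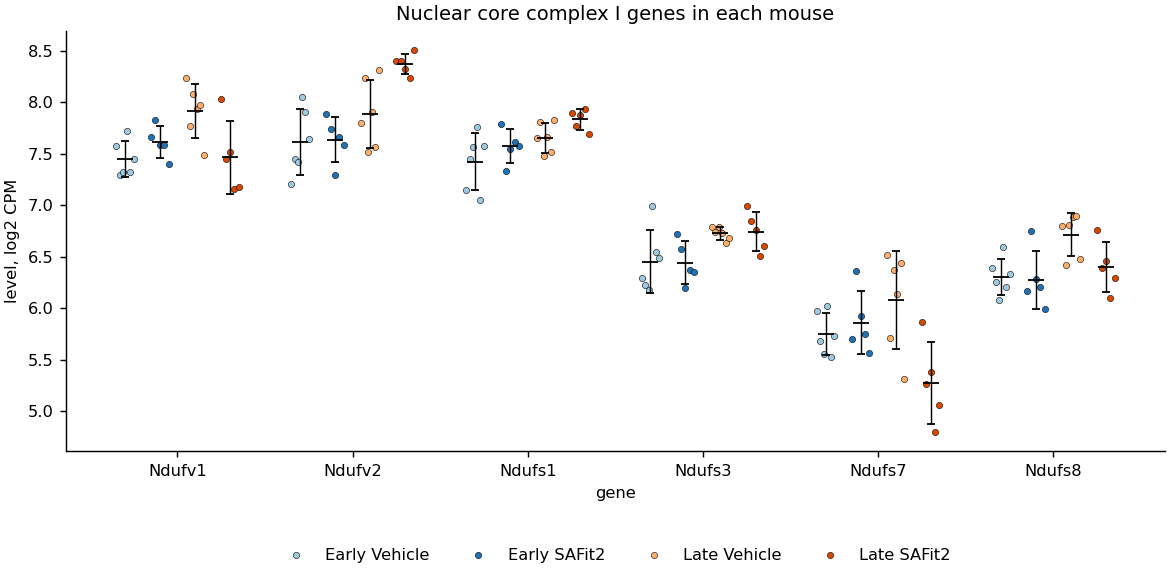
Level in log2 CPM (vertical axis) of nuclear core complex I genes (horizontal axis) in each mouse, by group; each point is a mouse, bars are mean ± SD (n = 5 for SAFit2 groups, n = 6 for Vehicle groups). Late SAFit2 points are high for Ndufv2 (8.24 to 8.51) and low for Ndufs7 (4.79 to 5.87) beside Late Vehicle, and the early groups overlap in every gene shown.

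The genes named also differed in base composition. As a description, the middle 60 bases of the longest coding exon are given, with G and C in capitals. They are from the mitochondrial gene with the largest change and the 3 called core genes, so the genes were picked by their late changes. Sequences are from GENCODE transcripts (GRCm38), 5′ to 3′ on the strand of the gene.
ND3: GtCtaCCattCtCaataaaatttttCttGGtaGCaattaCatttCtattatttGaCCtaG
Ndufv2: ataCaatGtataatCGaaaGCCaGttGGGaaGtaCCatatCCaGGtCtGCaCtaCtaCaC
Ndufv1: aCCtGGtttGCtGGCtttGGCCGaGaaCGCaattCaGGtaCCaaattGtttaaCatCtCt
Ndufs7: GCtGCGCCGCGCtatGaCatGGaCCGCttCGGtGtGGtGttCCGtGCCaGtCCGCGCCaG
The stretches lie at chrMT:9601-9660, at chr17:66087457-66087516 in exon 5 of 8, at chr19:4008670-4008729 in exon 6 of 10 and at chr10:80254900-80254959 in exon 5 of 8. Their GC contents are 28.3%, 41.7%, 45.0% and 68.3%, and those of the transcripts they were taken from are 33.0%, 42.0%, 56.7% and 60.7%.

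Across the 47 members with a GC value, the late log2 fold change fell with GC content (Pearson r = -0.79, Spearman rho = -0.75, across genes, which are not independent replicates). Within the 35 nuclear subunits r was -0.65, and over the 16213 genes tested with a GC value it was -0.61. Within the 7 mitochondrial genes the relation was weak (r = -0.36, rho = -0.07). Of the 18 nuclear subunits at or under the median GC content 14 had a positive and 4 a negative late fold change, and of the 17 above it 6 had a positive and 11 a negative one. The 4 negative ones at or under the median were Ndufa7, Ndufa12, Ndufv3 and Ndufb8, and Ndufb8, of the distal arm at 46.9% GC, had a log2 fold change of -0.40 ± 0.14 (limma adjusted p = 0.0565). The largest positive value of a nuclear subunit was that of Ndufa5, a Q-module accessory subunit at 50.3% GC, with 0.66 ± 0.29 (0.115). In the early comparison the correlation over the 47 genes was 0.40, with the opposite sign.

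**Figure D3:**
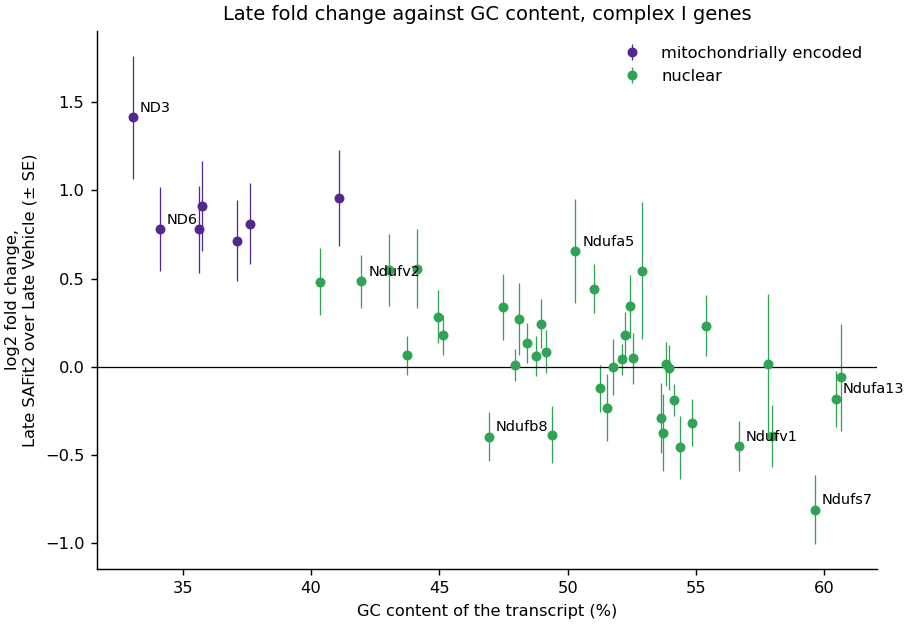
Late log2 fold change (vertical axis, Late SAFit2 over Late Vehicle, bars are SE) against GC content of the transcript in percent (horizontal axis) for the 47 complex I genes with a GC value; each point is a gene, 7 mitochondrial and 40 nuclear. Points fall from ND3 (1.41 at 33.0% GC) to Ndufs7 (-0.81 at 59.6% GC).

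By place in the complex, the counts of nuclear calls in the late comparison were small everywhere. In the N module 1 of 10 genes rose (Ndufv2) and 1 fell (Ndufv1), with a median log2 fold change of -0.06. In the Q module 1 of 6 fell (Ndufs7), with a median of -0.09. None of the 9 genes of the proximal arm or the 10 of the distal arm was called, with medians of 0.06 and 0.10. Among accessory subunits the lowest p in the upward direction was that of Ndufs4, an N-module subunit whose loss causes mitochondrial encephalopathy. It stood at 6.77, 6.96, 6.77, 6.95 and 7.20 log2 CPM in Late SAFit2 mice and from 5.96 through 6.28 to 6.96 in Late Vehicle mice, so that the log2 fold change was 0.55 ± 0.20 that was not called (limma adjusted p = 0.0666).

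The other 2 calls were Ndufb4b and Ndufb4c, near copies of Ndufb4 on chromosomes 19 and 15. Ndufb4b was at 5.18, 4.64, 4.90, 4.92 and 5.45 log2 CPM in Late SAFit2 mice and from 4.23 through 4.53 to 4.78 in Late Vehicle mice, so that the log2 fold change was 0.49 ± 0.14 (limma adjusted p = 0.0358). Ndufb4c had 0.44 ± 0.14 (limma adjusted p = 0.0433). Ndufb4 itself, a distal-arm subunit, had 0.18 ± 0.13 (0.331), and since reads of the copies and the parent may have been exchanged, the 3 values are uncertain. Ndufa4, the complex IV subunit, was at 8.29, 8.35, 8.17, 8.23 and 8.51 in Late SAFit2 mice and from 7.41 through 7.74 to 8.21 in Late Vehicle mice, with 0.48 ± 0.19 (0.0788), and Ndufa4l2 had -0.06 ± 0.30 (0.907).

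**Figure D4:**
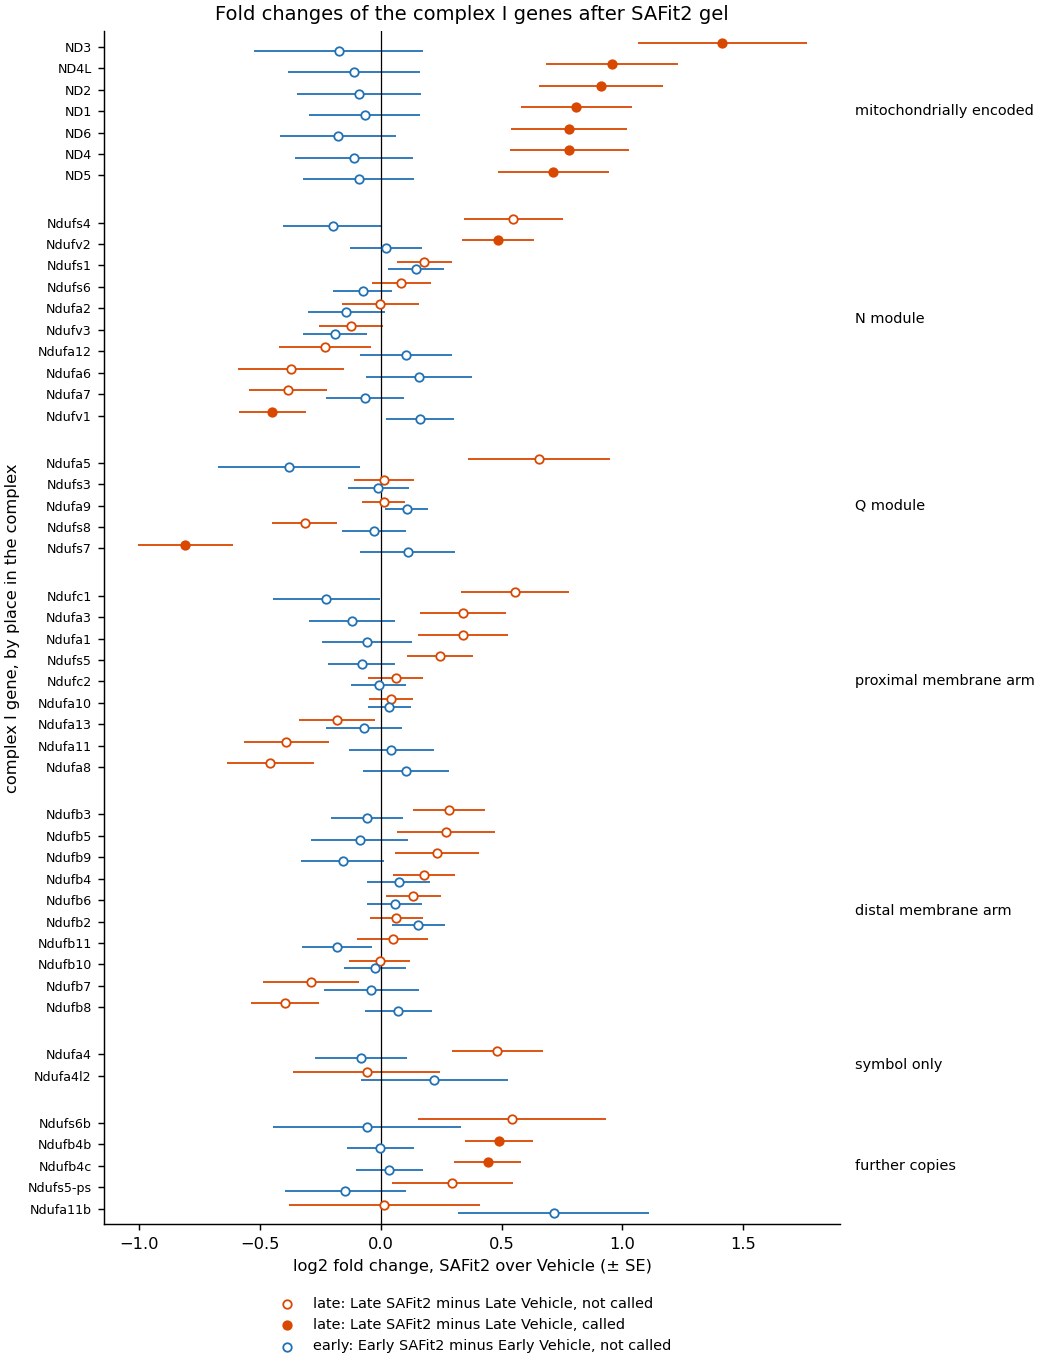
Log2 fold change of SAFit2 over Vehicle (horizontal axis, bars are SE) for complex I genes (vertical axis), grouped by place in the complex, late in orange (n = 5 and 6) and early in blue (n = 5 and 6); filled points were called. Filled points are the 7 mitochondrial genes (0.71 to 1.41), Ndufv2, Ndufb4b and Ndufb4c to the right and Ndufv1 and Ndufs7 to the left, all of them late.

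In the early comparison, Early SAFit2 against Early Vehicle, no complex I gene was called, and 0% of all genes tested were called in either direction. At an unadjusted p under 0.05, which 0.942% of genes tested passed with a higher and 1.54% with a lower level, 0 of the 49 members passed. The log2 fold changes of the 7 mitochondrial genes were all negative and small, from -0.18 to -0.07, with standard errors of 0.23 to 0.35 (limma p of 0.470 to 0.777). ND1 was at 12.57, 12.61, 11.81, 12.15 and 11.96 log2 CPM in Early SAFit2 mice and from 11.91 through 12.10 to 13.36 in Early Vehicle mice. ND3 was at 9.98, 9.63, 8.91, 9.33 and 9.28 in Early SAFit2 mice and from 8.72 through 9.49 to 10.88 in Early Vehicle mice. For ND1 and ND3 the Early SAFit2 values lay within the Vehicle range, except ND1 in replicate 3. ND6 was at 9.78 and 9.90 in Early SAFit2 replicates 3 and 5, below the lowest Early Vehicle value of 9.98.

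The Early Vehicle group held the mice that stood farthest apart. Replicate 5 had the highest level of its group for all 7 mitochondrial genes, and the highest of all 22 mice for 4 of them. Replicate 4 had the lowest level of its group for 4 of the 7, and the highest for 23 of the 42 nuclear genes. In that library 11.9% of reads fell on Bc1. ND6 went its own way there: its log2 level minus that of ND5 was -0.10 in replicate 4, against -1.92 to -1.14 in the other 21 mice. Leaving each library out in turn moved the early median of the mitochondrial genes from -0.25 to 0.12, and none was called. Replicates 4 and 5 also stood apart in summed oligodendrocyte markers, at 30572 and 32067 CPM, against at most 23245 CPM in every other library. The part of this in their complex I levels was not tested.

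Among nuclear genes, the lowest early p-values in the upward direction were those of Ndufa11b with a log2 fold change of 0.72 ± 0.40, Ndufb2 with 0.16 ± 0.11 and Ndufs1 with 0.15 ± 0.11. In the downward direction they were Ndufv3, an N-module subunit, with -0.19 ± 0.13, Ndufa5 with -0.38 ± 0.29 and Ndufb11, an X-linked distal-arm subunit, with -0.18 ± 0.15. All 6 had a limma adjusted p of 1. Ndufa11b is a low-level gene, between -1.93 and -0.16 log2 CPM in the early mice. Ndufa5 was at 7.27 and 6.90 log2 CPM in Early Vehicle replicates 4 and 5 and between 5.30 and 5.70 in the other 4 mice of that group.

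The difference between the early and the late effect of SAFit2 was examined directly, as early minus late log2 fold change. No gene of the table passed the adjusted threshold (0% in either direction). At an unadjusted p under 0.05, which 14.0% of all genes tested passed with a positive and 10.9% with a negative difference, 7 of 7 mitochondrial genes passed with a negative difference. These ranged from -0.81 for ND5 to -1.59 for ND3 (limma p of 0.00345 to 0.0196, adjusted p of 0.12 to 0.14). Of the nuclear genes 4 of 42 passed with a positive difference (Ndufs7, Ndufv1, Ndufb8 and Ndufa8) and 7 of 42 with a negative one (Ndufs4, Ndufc1, Ndufa5, Ndufv2, Ndufa4, Ndufb4b and Ndufb4c). The lowest p-values were those of Ndufs7 with 0.92 ± 0.28 (limma adjusted p = 0.12), Ndufv1 with 0.61 ± 0.20 (0.12) and Ndufs4 with -0.75 ± 0.29 (0.132). Without Late Vehicle replicate 6, 7 mitochondrial and 5 nuclear genes passed the adjusted threshold. The share of all genes that passed in that fit is not given here.

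The mean of the early and late effects called no gene (0% in either direction). At an unadjusted p under 0.05, passed by 6.03% of genes upward and 7.18% downward, 4 of 7 mitochondrial genes passed upward (ND1, ND2, ND3 and ND4L). Of the nuclear genes 3 of 42 passed upward (Ndufv2, Ndufb4b and Ndufb4c) and 1 downward (Ndufs7). Each of these 8 genes had been called in the late comparison. Their early log2 fold changes ran from -0.17 to 0.11.

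Among Vehicle mice, 6 of the 42 nuclear genes were called higher in Late than in Early mice and no mitochondrial gene was called. Of all genes tested 3.29% were called higher and 5.82% lower in Late Vehicle mice, and no complex I gene was called lower. The 6 were Ndufa9, a Q-module subunit related to dehydrogenases (log2 difference 0.40 ± 0.09, limma adjusted p = 0.00362), Ndufa10 of the proximal arm (0.35 ± 0.09, 0.00962), Ndufb8 (0.47 ± 0.13, 0.0244), Ndufv1 (0.47 ± 0.13, 0.0265), Ndufs8 (0.41 ± 0.13, 0.0414) and Ndufa12, of the N module (0.57 ± 0.18, 0.0462). Ndufa9 ran from 7.36 through 7.45 to 7.66 log2 CPM in Late Vehicle mice and from 6.96 through 7.08 to 7.22 in Early Vehicle mice, so that these groups did not overlap. Nor did they for Ndufa10, which ran from 7.63 to 7.89 in Late and from 7.21 to 7.56 in Early Vehicle mice. These were the only 2 of the 49 members without overlap in this comparison, against 4.92% of all genes tested. Positive differences were found in 38 of the 42 nuclear genes, with a median of 0.22 beside 0.01 for all genes tested. Markers of other cells moved in the same comparison. Of the astrocyte markers 2 of 6 were called higher in Late Vehicle mice, and their summed level was 4386 to 5295 CPM in Late and 3355 to 4426 CPM in Early Vehicle mice. Also called higher were 1 of 8 neuron, 1 of 6 oligodendrocyte, 1 of 6 endothelial and mural and 1 of 4 red cell markers, and 1 of 6 ependymal markers was called lower. Their part in the nuclear differences was not tested. The timing of the gel and the batch cannot be told apart here. With library sizes taken without mitochondrial genes and Bc1, or with quantile normalization, 1 of the 6 was called, and with the GC content and length correction 15 nuclear genes were called. The count was 2 without Early Vehicle replicate 3 or without Late Vehicle replicate 1 or 5. For these alternatives the shares of all genes called are not given here.

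Ndufv1 and Ndufb8 were higher in Late than in Early Vehicle mice, and in Late SAFit2 mice their levels were near those of the early groups. Ndufb8 had means of 7.19 ± 0.12 (SD, n = 6) in Early Vehicle, 7.26 ± 0.23 (n = 5) in Early SAFit2, 7.67 ± 0.27 (n = 6) in Late Vehicle and 7.27 ± 0.32 (n = 5) in Late SAFit2 mice. For Ndufv1 the means in that order were 7.45 ± 0.17, 7.61 ± 0.16, 7.92 ± 0.26 and 7.47 ± 0.35. The other genes called higher in Late Vehicle mice did not all do so. Medians in Early Vehicle, Late Vehicle and Late SAFit2 mice were 7.08, 7.45 and 7.44 for Ndufa9. They were 7.33, 7.67 and 7.78 for Ndufa10 and 5.34, 5.80 and 5.71 for Ndufa12, so all of these stayed near Late Vehicle. Ndufs8, at 6.29, 6.80 and 6.39, was nearer Early Vehicle in Late SAFit2 mice. The late fold changes and the Vehicle differences share the Late Vehicle mice, so they are not independent of each other.

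The summed CPM of the 7 mitochondrial genes was set against that of the 42 nuclear genes in each mouse, as a description. The log2 ratio was 2.80, 3.18, 2.94, 3.29 and 3.41 in the Late SAFit2 mice and 2.07, 2.46, 2.02, 2.20, 2.12 and 3.16 in the Late Vehicle mice. It was 2.66, 2.74, 2.52, 2.53 and 2.59 in the Early SAFit2 mice and 2.56, 2.65, 2.81, 1.77, 3.54 and 2.83 in the Early Vehicle mice. The late means differed by 0.78 and the early means by -0.09, and the widest spread was that of Early Vehicle (SD 0.57) against 0.09 in Early SAFit2. The mitochondrial genes took 1.48% to 4.56% of reads and the nuclear genes 0.334% to 0.435%, so the ratio followed the mitochondrial side. It sets AT-rich genes against nuclear genes of higher GC content, so it is not free of each library's slope on GC content. The part of that slope in the ratios was not tested.

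**Figure D5:**
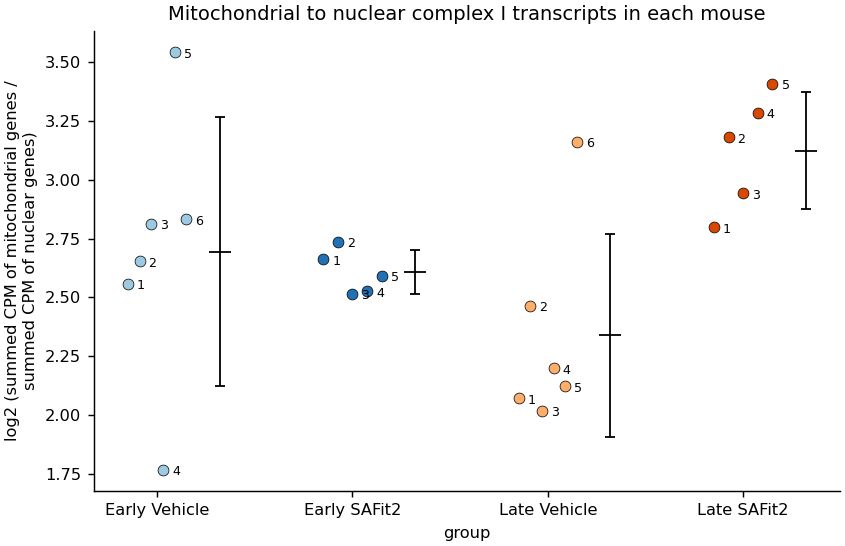
Log2 ratio of the summed CPM of the 7 mitochondrial genes to that of the 42 nuclear genes (vertical axis) in each mouse, by group (horizontal axis), with the replicate number beside each point and mean ± SD as bars (n = 5 for SAFit2 groups, n = 6 for Vehicle groups). Late SAFit2 mice lie between 2.80 and 3.41, and Late Vehicle mice between 2.02 and 2.46 with replicate 6 at 3.16.

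Whether the mitochondrial genes changed by different factors was not tested. As a description, the log2 level of ND3 minus that of ND4, both from the same strand, was -2.13 to -1.08 in Late SAFit2 mice, -2.92 to -1.62 in Late Vehicle mice, -3.44 to -2.87 in Early SAFit2 mice and -3.76 to -2.38 in Early Vehicle mice. The ranges of the 2 late groups overlapped, and so did the Vehicle ranges of the 2 batches, through Early Vehicle replicate 4. The group means in that order were -1.66, -2.30, -3.23 and -3.17. ND3 was picked by its late change. The shift between the late groups follows from the fold changes of the pair and is no separate result.

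Of the 6 other mitochondrially encoded proteins, 4 rose in the late comparison: ATP8, a subunit of the ATP synthase (1.41 ± 0.34, limma adjusted p = 0.0324), COX3 (0.79 ± 0.25, 0.0442) and COX2 (0.77 ± 0.25, 0.0453) of cytochrome c oxidase, and CYTB of complex III (0.71 ± 0.23, 0.0473). ATP6 had 0.79 ± 0.27 (0.0512) and COX1 0.65 ± 0.24 (0.0665). The share of all genes tested that were called higher was 5.33%. In the early comparison their log2 fold changes were -0.20 to -0.09. Medians were 0.81 for the 7 ND genes and 0.78 for these 6.

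Among all genes tested 5.33% were called higher and 6.72% lower in the late comparison, the shares beside which the following counts stand. Calls in the gene lists outside the members were not followed through other settings. Of the 18 complex I assembly factors measured, 4 rose and 0 fell, with a median log2 fold change of 0.03. The 4 were Ndufaf4 (0.60 ± 0.19, limma adjusted p = 0.0425), Ndufaf2 (0.56 ± 0.18, 0.0462), Tmem126b (0.51 ± 0.16, 0.0433) and Ndufaf1 (0.44 ± 0.15, 0.0491). Tmem126b and Ndufaf1 act together in building the membrane arm. Of 23 genes that transcribe mitochondrial DNA or handle its RNA, 4 rose and 2 fell. Slirp, which protects mitochondrial messengers from decay, rose by 0.94 ± 0.24 (limma adjusted p = 0.0324), and Polrmt, the mitochondrial RNA polymerase itself, fell, with a log2 fold change of -0.82 ± 0.21 (0.0327). Tfb2m, the initiation factor of that polymerase, rose by 0.46 ± 0.13 (0.0341), as did the nuclease Pnpt1 by 0.76 ± 0.24 (0.0425) and the poly(A) polymerase Mtpap by 0.45 ± 0.14 (0.0426), and Fastk, whose mitochondrial form is needed for the ND6 messenger, fell (-0.56 ± 0.17, 0.0402).

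Among 9 regulators of nuclear respiratory genes 2 rose in the late comparison, in which 5.33% of all genes tested were called higher. They were Gabpa, a transcription factor of many respiratory promoters (0.73 ± 0.14, limma adjusted p = 0.0262), and the coactivator Ppargc1a (0.47 ± 0.15, 0.0466). Of 8 enzymes of reactive oxygen or NADH handling 0 were called. In the early comparison none of these lists had a called gene. In the Vehicle comparison Mterf4 and Pnpt1 were lower in Late mice (-0.65 and -0.74), and so was Gabpa (-0.41, limma adjusted p = 0.0461). The share of all genes called lower there was 5.82%. Gabpa had means of 4.67 log2 CPM in Early Vehicle, 4.48 in Early SAFit2, 4.25 in Late Vehicle and 4.98 in Late SAFit2 mice. For Gabpa and Pnpt1 the late and Vehicle differences share the Late Vehicle mice, so they are not independent.

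Over the 22 mice, the genes whose level was most like the mean of the 7 mitochondrial genes were CYTB (Pearson r = 0.97), ATP8 and COX2 (0.94 each), with 2 genes listed without a symbol among the first 5. Those most like the mean of the 35 nuclear subunits were Atp5o (0.97), Cox6b1 (0.94), Atp5g3 (0.93), Rpl6 (0.93) and Cox7a2l (0.93). All but Rpl6, a ribosomal protein gene, encode proteins of, or associated with, the respiratory chain or the ATP synthase. The points share library, depth and base composition, so these values are descriptions.

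Promoter windows around the start site (RefSeq, GRCm38.p6) were held for 33 of the 42 nuclear genes and 12575 genes tested. The letters GCGCATGCG of the NRF1 motif, on either strand, were in 2 of 33 (6.06%) and in 3.51% of all. CCGGAAG of the ETS family, to which Gabpa belongs, was in 4 of 33 (12.1%) and in 17.2% of all, and ATGGCGGC of YY1 in 6 of 33 (18.2%) and in 4.83% of all. The 6 with the YY1 letters were Ndufa7, Ndufa9, Ndufb5, Ndufs4, Ndufs6 and Ndufs7, whose late changes went in both directions.

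Depth was between 11352989 and 24433349 reads on genes per library, and the mitochondrial genes together had 208088 to 814858 reads. The libraries with over 7% of reads on Bc1 were those of lowest depth. Late SAFit2 replicates 4 and 5 had 11352989 and 11503386 reads, Late Vehicle replicate 6 had 13862129 and Early Vehicle replicate 4 had 14079545. The part of depth in the group differences was not tested. Every marker listed for neurons (8), astrocytes (6) and oligodendrocytes (6) had reads in every library, and all 5 motor neuron markers were also read in every library. In the late comparison no marker of neurons, astrocytes, oligodendrocytes or microglia was called. Called lower were 2 of 6 ependymal, 1 of 4 oligodendrocyte precursor and 1 of 6 endothelial and mural markers, and 1 of 7 skeletal muscle markers was called higher. The shares of all genes tested were 5.33% higher and 6.72% lower. All 7 muscle markers had a positive late fold change, with a median log2 value of 2.33, and 6 had an unadjusted limma p under 0.05.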

How the data were processed

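RNA sequencing was analysed for 22 mice in 4 groups. Per the labels and the study's methods, the authors trimmed reads (Trimmomatic), aligned them to mm10 (HISAT2), counted them per gene (featureCounts) and deposited log2 CPM values with trimmed-mean scaling (edgeR); versions are not given in the sources used here. The methods also name TPM, but the values came out as whole reads for 100% of entries (within 0.02 reads) with no length term.

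The deposited log2 values were fitted for 16765 genes (log2 CPM of at least -1 in 5 libraries) with limma 3.58.1 (R 4.3.3), a variance trend, a mean per group and Benjamini-Hochberg adjustment. Fold changes of low genes are understated by the prior count. Exact permutation tests were two-sided. The fit was tested on simulated data. GC content and lengths came from GENCODE M21, gene coordinates from RefSeq (GRCm38.p6). Protein sequences and Ndufb1 were not analysed here, and 1 member stays in the fits and counts but is not reported here by itself.

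The members and gene lists were chosen with earlier results of these data known. Named were mitochondrial and nuclear core genes, nuclear genes called in any comparison, the 3 nuclear genes of lowest p in each direction (late, early) and in early minus late, Ndufa4, Ndufa4l2, and the highest and lowest per length; others were chosen after their values were seen. The labels do not tie each sample to its own animal, though the methods count the animal as the unit, so p-values measure only the spread between these samples. Alternatives covered filters, pseudocounts, scaling, GC content, replicate block, fit and left-out libraries.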

Additional observations from a re-analysis of the deposited data

Results flagged for a closer look

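Of 116 sets of values examined (29 measures in each of 4 groups), 7 had a highest or lowest mouse whose distance to the next exceeded Dixon's limit for the group size, where chance gives about 1 in 20. ND1 was at 13.36 log2 CPM in Early Vehicle replicate 5, against 12.28 in the next mouse. ND5 was at 12.36 and ND6 at 10.91 in Late Vehicle replicate 6, against 11.67 and 10.16. Ndufa12 was at 4.35 in Early Vehicle replicate 4, where the next lowest mouse had 5.27. Ndufa10 was at 7.89 in Late Vehicle replicate 4, against 7.71. Ndufa5 was at 6.81 in Late SAFit2 replicate 5, against 6.44, and Ndufa4l2 at 0.41 in Late Vehicle replicate 5, where the next lowest had 0.83. The causes were not tested.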

How the results depend on the processing

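Late calls depended on the setting, and no called fold change changed sign. The share of all genes called is given for the reported fit alone. Under the alternatives, here and above, a count of members cannot therefore be told from a shift over the whole table. Of the 7 mitochondrial genes called late, 2 were called with quantile normalization, 0 with the GC content and length correction, 0 with that correction and the replicate block, 0 with the mice of the 2 groups alone, and 0 without the variance trend. Of 3 alternatives chosen after seeing the data, leaving out the muscle libraries gave 0, leaving out those with over 7% of reads on Bc1 gave 1, and the GC slope as a covariate gave 0. Nuclear late calls, 5 as reported, were 0 under each of the GC correction, GC correction with replicate block, the 2 groups alone, no trend, muscle, Bc1 and GC slope settings, 2 with voom, 12 with the replicate block and 18 with quality weights. With one library left out, late calls ranged from 0 to 7 mitochondrial and from 0 to 14 nuclear. The mean effect had 0 calls, and 7 mitochondrial and 6 nuclear with quality weights. Early minus late, 0 as reported, had 3 mitochondrial and 3 nuclear with the replicate block, 7 and 14 with quality weights, and 0 to 7 and 0 to 5 with one library left out. In the Vehicle comparison the mitochondrial count of 0 became 1 with the GC correction, 3 with quality weights, 2 without the Bc1 libraries and 1 with the GC slope. The nuclear count of 6 became 1 with library sizes without mitochondrial genes and Bc1, 1 with quantile normalization, 15 with the GC correction, 23 with quality weights and 12 without the Bc1 libraries, and ranged from 2 to 7 with one library left out. The causes were not tested. Early calls were 0 under every setting. The late ratio difference ranged from 0.62 to 0.95 and the early from -0.27 to 0.08. Replicate numbers did not pair the mice: over 10 same-numbered pairs the correlation of residuals ran from -0.24 to 0.32, and 2 exceeded 0.1. The replicate block kept 7 mitochondrial late calls. It gave no value for the Vehicle comparison, since blocks lie within a batch. Low read numbers limit mainly Ndufa11b, Ndufs6b and Ndufa4l2, and the part of depth in the other differences was not tested.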
